A study of Homo sapiens with 4 samples.

Results

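DEK and 30 other genes of histone chaperones and their partners were examined after Cas9 knockout of DEK in 786-O, a line grown from a human clear cell kidney tumour. The 31 genes were taken by symbol from a table of 59409 genes, and all 31 had a row in it. The study sequenced polyadenylated RNA in 2 DEK knockout libraries and 2 negative control libraries labelled wild type. Per the labels, a clone expressing Cas9 had been made with the LentiCas9-Blast virus, and knockout clones were made from such cells with LentiGuide-Puro virus carrying guides against DEK, followed by sorting of single cells. The control columns of the table carry the name Cas9. Whether the knockout libraries came from 1 clone or from 2, and whether the libraries of a group were separate cultures, is not stated. A p-value therefore reflects only how far these libraries vary, and that variation may be technical.

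Histones are rarely free in a cell. Chaperones, many with long acidic stretches, carry them from synthesis to import, hand them to assembly factors, place them on DNA and take them off ahead of polymerases. DEK is an abundant chromatin protein, described as a chaperone of the replacement histone H3.3 and as an oncoprotein first known from a fusion with NUP214 in leukaemia. H3.3 is placed outside of replication by separate routes, the HIRA complex in active genes and DAXX with ATRX at repeats and telomeres, while the CAF-1 complex places H3.1 with newly made DNA.

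TPM, the deposited measure, is transcript abundance per length, scaled to the same total in each library. Steps among low TPM values put the depth at roughly 35800000 and 40100000 reads in the knockouts and 38900000 and 39600000 reads in the controls. Markers of renal epithelium were present: PAX8, a kidney lineage factor, had 140 and 160 TPM in the knockouts and 153 and 142 TPM in the controls. Of 8 genes of kidney and carcinoma identity 6 were tested, PAX2 fell (log2 fold change -1.08, adjusted p = 0.027) and KRT18, a keratin, rose (0.42, adjusted p = 0.025). CA9 and NDUFA4L2, which mark many clear cell tumours, stayed below 0.35 TPM in each library. Of 10 markers of blood, endothelial and stromal cells only PDGFRB reached the filter, CD3E was at 0 in every library, and the 10 summed to 0.786 and 0.902 TPM in the knockouts and 1.07 and 1.61 TPM in the controls. Mitochondrially encoded genes made up 16.4% and 16.5% of all TPM in the knockouts and 17.2% and 19.04% in the controls.

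The table values were compared as log2(TPM + 1) with limma, over the 15815 genes that had at least 1 TPM in at least 2 libraries, with Benjamini-Hochberg adjustment over all of them at 0.05. A fold change in log2 is on that scale, knockout over control, and understates the change of low genes. A percentage of the control mean is on the TPM scale. An exact permutation test of a single gene was not used, because with 2 libraries a group its smallest p is 0.333.

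Of the 31 genes 30 were tested, 7 fell in the knockout and 0 rose. Those that fell were DEK, ANP32E, RBBP4, H3-3A, SET, NPM1 and NCL. Among all tested genes 17.7% (1433 higher and 1371 lower in the knockout) were past the threshold in either direction and 8.67% fell, against 23.3% of the histone chaperone genes, and without the targeted DEK 6 of 29 fell. The median log2 fold change was -0.21 over the 30 genes, or -0.17 without DEK, against -0.06 over all tested genes. Both knockouts lay below both controls for 20 of the 30 genes, where 39.0% of all tested genes did so. They lay above both controls only for HJURP, where 4625 of the 15815 tested genes did so. No set test was made, so none of these shares was tested as a difference from other genes. Leaving out 1 library leaves a group of 1, which is then assumed to vary like the other group, so the spread comes from the knockouts alone without a control and from the controls alone without a knockout. The number of members that fell was then 0 without control 1 and 0 without control 2, where 47 and 51 of all genes passed, and 12 without knockout 1 and 12 without knockout 2, where 5510 and 3092 of all genes passed. With all 4 libraries and one variance prior for all genes it was 0. In bulk RNA, fewer cells that make an mRNA and less of it in each cell cannot be told apart.

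**Figure D1:**
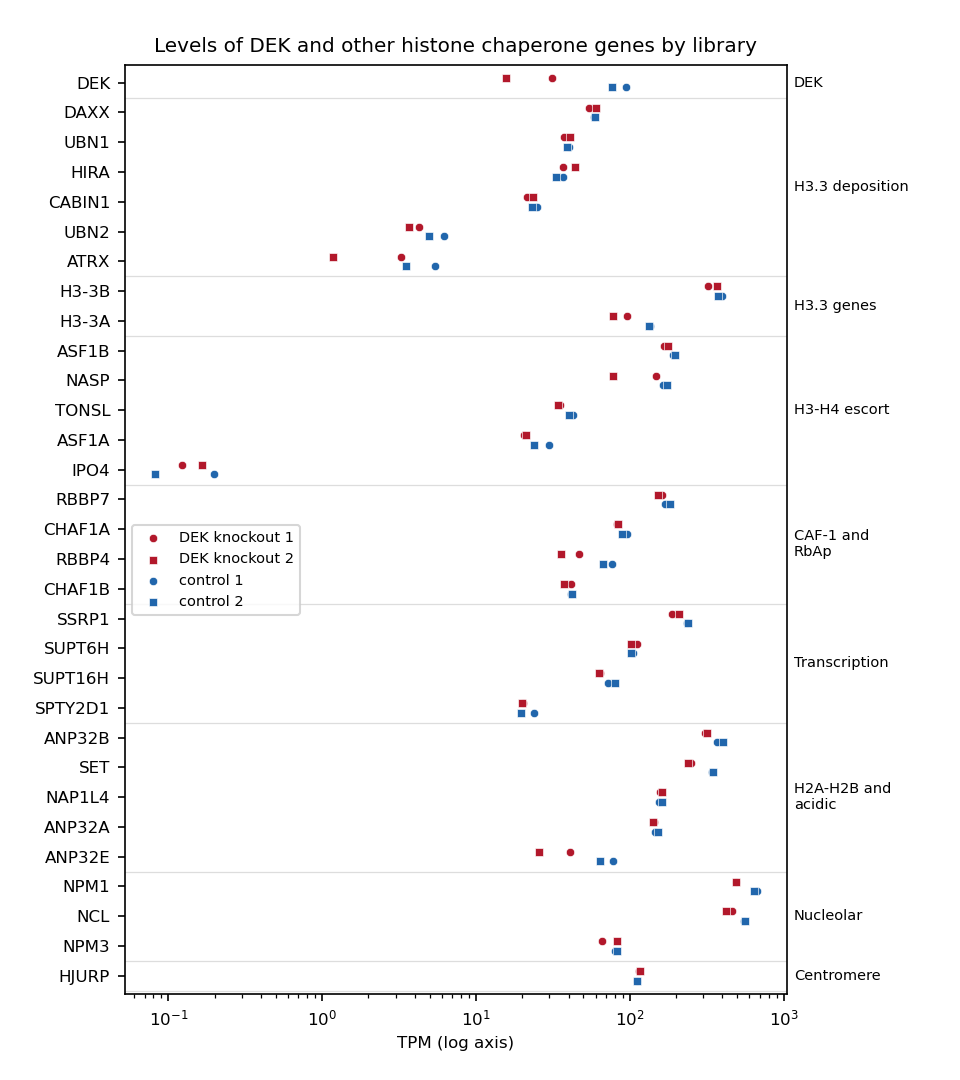
TPM of the 31 genes on a log axis, in rows grouped by role, with each DEK knockout library in red and each control library in blue (circles are replicate 1 and squares replicate 2 of a group). DEK (31.4 and 15.7 TPM in the knockouts, 95.02 and 76.3 TPM in the controls), ANP32E and RBBP4 show the widest gaps between groups, while IPO4 is at 0.198 TPM or less throughout.

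DEK, the targeted gene, lies on the minus strand of chromosome 6 from 18223868 to 18264823 (GRCh38). It had 31.4 and 15.7 TPM in the knockouts, against 95.02 and 76.3 TPM in the controls. Both knockouts were thus far below both controls, but DEK mRNA was present in each, at 36.7% and 18.3% of the control mean, with the lower level in knockout 2. The log2 fold change was -1.89 (SE 0.33, limma adjusted p = 0.030). Only 0.341% of tested genes had a lower value. With the spread taken from the knockouts alone, it was -1.73 without control 1 (adjusted p = 0.14) and -2.05 without control 2 (adjusted p = 0.10), in fits where few genes of any kind passed. In the controls DEK ranked 16th of the 31 genes by mean TPM, between CHAF1A and NPM3, and in the knockouts 25th. TPM does not show which alleles were edited, nor how much protein was left.

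The genes of H3.3 deposition did not pass the test in any of 6 cases, where 17.7% of all tested genes passed in either direction. DAXX, the chaperone that holds H3.3 with H4, had 54.1 and 60.1 TPM in the knockouts and 58.2 and 59.1 TPM in the controls. The 2 groups overlapped, and the 95% interval of the log2 fold change ran from -0.26 to 0.18. ATRX, the helicase that partners DAXX, was low throughout, with 3.27 and 1.181 TPM in the knockouts and 5.40 and 3.50 TPM in the controls. Knockout 2 stood apart: it had 26.5% of the control mean and knockout 1 had 73.5%. The log2 fold change of ATRX was -0.81 (SE 0.38, adjusted p = 0.19), and it was -1.30 without knockout 1 and -0.33 without knockout 2. The value without knockout 1 had an adjusted p of 0.027 with the spread of the controls alone, which does not include the difference between the knockouts.

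HIRA, the scaffold of the other H3.3 complex, had 36.6 and 43.8 TPM in the knockouts and 37.0 and 33.3 TPM in the controls, and differed by 0.18 in log2 (SE 0.12, adjusted p = 0.32). In GENCODE release 29, 66.5% of its exon bases are shared with C22orf39 on the same strand, so its level is uncertain. HIRA lies on chromosome 22, whose tested genes had a median log2 fold change of 0.22, and its own value was -0.02 relative to the chromosome's median level. UBN1, the HIRA complex subunit that binds H3.3, had 37.4 and 40.8 TPM in the knockouts and 40.5 and 39.03 TPM in the controls. Its paralog UBN2 was lower, at 4.27 and 3.65 TPM in the knockouts and 6.22 and 4.98 TPM in the controls (log2 fold change -0.41, SE 0.17, adjusted p = 0.16). Of these 2 genes, only UBN2 had both knockouts below both controls. CABIN1, the remaining subunit, had 21.6 and 23.4 TPM in the knockouts and 24.8 and 23.1 TPM in the controls. Its log2 fold change was -0.09 (adjusted p = 0.56). Relative to the median level of chromosome 22, where CABIN1 also lies, it was -0.29 (adjusted p = 0.11).

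Both genes that encode H3.3 were measured, and only H3-3A passed the test. Although their coding sequences differ, H3-3A and H3-3B specify the same protein. H3-3A (chromosome 1, 226061851 to 226072001, plus strand) had 96.3 and 77.2 TPM in the knockouts and 135 and 134 TPM in the controls. The knockouts lay below the controls, which were nearly equal, and the log2 fold change was -0.63 (SE 0.12, adjusted p = 0.034). H3-3B, the more abundant gene, had 322 and 366 TPM in the knockouts and 395 and 377 TPM in the controls, and differed by -0.17 in log2 (SE 0.08, adjusted p = 0.21). The summed TPM of both genes was 419 and 444 in the knockouts and 530 and 511 in the controls. H3-3A made up 23.0% and 17.4% of that sum in the knockouts and 25.5% and 26.2% in the controls.

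The 4 tested genes that escort H3 with H4 before deposition had both knockouts below both controls, as 39.0% of all tested genes did, without passing the test. NASP, which keeps a soluble pool of H3 and H4, had 149 and 78.2 TPM in the knockouts and 163 and 175 TPM in the controls. Knockout 1 was close to the controls, at 87.9% of their mean, and knockout 2 was at 46.2%. Of all tested genes 95.5% had a smaller difference between the knockouts than NASP. The log2 fold change was -0.64 (SE 0.30, adjusted p = 0.19), and it was -1.10 without knockout 1 and -0.18 without knockout 2. The value without knockout 1 had an adjusted p of 0.0014, but it sets a single knockout library against the spread of the controls alone and so leaves out the difference between the knockouts. The 50 tested genes that flank NASP on chromosome 1 had median differences from the controls of -0.12 in knockout 1 and -0.47 in knockout 2.

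ASF1A and ASF1B pass H3 and H4 on to HIRA and CAF-1. ASF1A had 20.4 and 21.3 TPM in the knockouts and 29.6 and 24.0 TPM in the controls (log2 fold change -0.34, SE 0.13, adjusted p = 0.13). ASF1B, the form tied to proliferation, had 166 and 178 TPM in the knockouts and 191 and 196 TPM in the controls (log2 fold change -0.17, SE 0.07, adjusted p = 0.14). ASF1B was the main form in each library, with 89.1% and 89.3% of the pair's TPM in the knockouts and 86.6% and 89.1% in the controls. TONSL, which binds new histones at damaged forks together with MMS22L, had 35.1 and 34.0 TPM in the knockouts and 42.7 and 40.4 TPM in the controls (log2 fold change -0.26, SE 0.08, adjusted p = 0.090). IPO4, an importin for H3 and H4, was the gene that missed the filter, at 0.123 and 0.165 TPM in the knockouts and 0.198 and 0.0817 TPM in the controls. In release 29, 69.3% of its exon bases are shared with AL136295.4 on the same strand, so its level is uncertain.

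Of the CAF-1 subunits and their histone-binding relatives, RBBP4 fell. RBBP4, a WD40 protein that binds H4 in CAF-1 and in several repressor complexes, lies on chromosome 1 (32651142 to 32686211, plus strand). It had 46.7 and 35.5 TPM in the knockouts and 76.8 and 66.9 TPM in the controls, with no overlap, and the log2 difference was -0.80 (SE 0.16, adjusted p = 0.036). Of the 9470 exon bases of RBBP4, 1706 are shared with SYNC on the opposite strand, and the use of strand in counting is not known. RBBP7, its close relative, had 163 and 153 TPM in the knockouts and 170 and 182 TPM in the controls (log2 fold change -0.15, SE 0.07, adjusted p = 0.19). RBBP4 thus made up 22.3% and 18.8% of the summed TPM of the pair in the knockouts and 31.1% and 26.9% in the controls. The large subunit CHAF1A had 83.1 and 83.8 TPM in the knockouts and 96.0 and 88.4 TPM in the controls, and CHAF1B had 41.4 and 37.3 TPM in the knockouts and 41.3 and 41.9 TPM in the controls. Neither passed, with intervals from -0.34 to 0.05 and from -0.31 to 0.15 on the log2 scale.

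**Figure D2:**
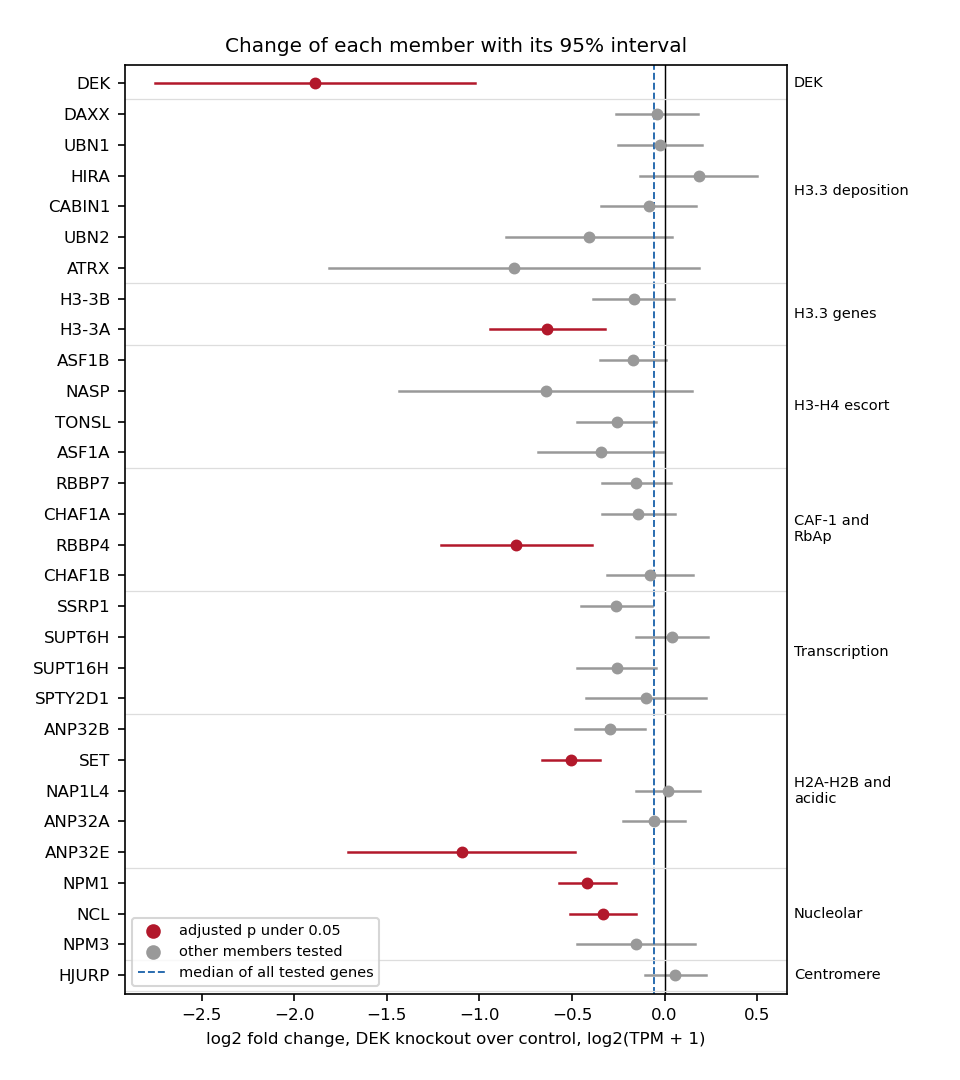
Log2 fold change of the 30 tested genes, DEK knockout over control on the log2(TPM + 1) scale, with the 95% interval from limma (2 libraries per group). Red marks the 7 genes with an adjusted p under 0.05, all below 0, and the dashed line is the median of all tested genes at -0.06; DEK, ANP32E and RBBP4 have the lowest values among the 7.

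Chaperones that work with RNA polymerase II did not pass in any of 4 cases, where 17.7% of all tested genes passed in either direction. SSRP1 and SUPT16H form FACT, which loosens H2A-H2B from nucleosomes. SSRP1 had 189 and 208 TPM in the knockouts and 235 and 240 TPM in the controls (log2 fold change -0.26, SE 0.07, adjusted p = 0.070). SUPT16H had 64.0 and 62.6 TPM in the knockouts and 72.2 and 79.8 TPM in the controls (log2 fold change -0.26, SE 0.08, adjusted p = 0.090). Both knockouts were below both controls for each of the 2 genes, and the balance between them differed little: SSRP1 was 74.7% and 76.8% of their summed TPM in the knockouts and 76.5% and 75.0% in the controls. SUPT6H, which keeps H3-H4 on transcribed genes, had 111 and 102 TPM in the knockouts and 105 and 101 TPM in the controls. SPTY2D1, the human form of the yeast chaperone Spt2, had 20.3 and 19.8 TPM in the knockouts and 23.7 and 19.6 TPM in the controls, also overlapping.

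Among the acidic chaperones of H2A-H2B and their relatives 2 of 5 fell, where 8.67% of all tested genes did. ANP32E removes the variant H2A.Z from nucleosomes and lies on chromosome 1 (150218417 to 150236156, minus strand). It had 40.7 and 25.7 TPM in the knockouts and 77.4 and 63.9 TPM in the controls, the largest difference after DEK among the 30 genes tested. The log2 fold change was -1.10 (SE 0.24, adjusted p = 0.043), and with single libraries left out it lay between -1.42 and -0.77. SET, also called TAF-I beta, an inhibitor of histone acetylation and of the phosphatase PP2A, had 249 and 238 TPM in the knockouts and 345 and 348 TPM in the controls. Replicates of SET were close in both groups, and the log2 difference was -0.51 (SE 0.06, adjusted p = 0.017), the smallest adjusted p of the 30. SET is on chromosome 9 (128683424 to 128696400, plus strand), and 19 annotated pseudogenes carry its name, which together had 2.05 and 1.80 TPM in the knockouts and 3.601 and 3.06 TPM in the controls.

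ANP32B, like ANP32A a leucine-rich acidic protein, had 307 and 319 TPM in the knockouts and 367 and 403 TPM in the controls (log2 fold change -0.30, SE 0.07, adjusted p = 0.054). ANP32A had 144 and 142 TPM in the knockouts and 145 and 152 TPM in the controls, with an interval of the log2 fold change from -0.22 to 0.11. Within this family the shares of the summed TPM moved apart: ANP32E was at 8.27% and 5.29% in the knockouts and 13.1% and 10.3% in the controls, and ANP32A at 29.2% and 29.1% in the knockouts and 24.6% and 24.5% in the controls. NAP1L4, which carries H2A-H2B, had 158 and 163 TPM in the knockouts and 154 and 163 TPM in the controls, with an interval from -0.15 to 0.19.

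**Figure D3:**
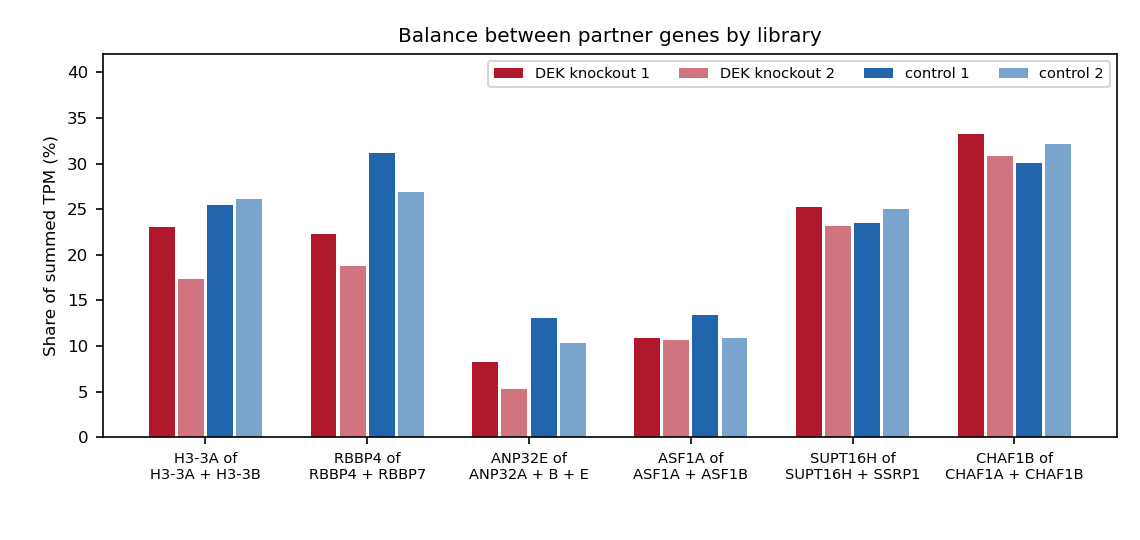
Share of each named gene in the summed TPM of its pair or family, in percent, with bars for DEK knockout 1, DEK knockout 2, control 1 and control 2 from left to right. H3-3A, RBBP4 and ANP32E have lower shares in both knockouts than in both controls, while the bars of SUPT16H and CHAF1B overlap between groups; ASF1A was at 10.9% and 10.7% in the knockouts and 13.4% and 10.9% in the controls.

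Of the nucleolar chaperones NPM1 and NCL fell. NPM1, nucleophosmin, which binds histones and ribosomal proteins, is on chromosome 5 (171387116 to 171411137, plus strand) and was the most abundant of the 31 genes. It had 491 and 492 TPM in the knockouts and 672 and 640 TPM in the controls, and the log2 difference was -0.42 (SE 0.06, adjusted p = 0.021). The knockouts were almost equal, at 74.8% and 75.0% of the control mean. The table has 49 rows of NPM1 pseudogenes, which summed to 59.3 and 64.1 TPM in the knockouts and 71.5 and 76.1 TPM in the controls, so some reads may have been exchanged between these copies. NCL, nucleolin, on chromosome 2 (231453531 to 231483641, minus strand), had 463 and 424 TPM in the knockouts and 554 and 561 TPM in the controls (log2 fold change -0.33, SE 0.07, adjusted p = 0.040). NPM3, a smaller nucleoplasmin, had 65.7 and 81.96 TPM in the knockouts and 80.7 and 82.9 TPM in the controls (adjusted p = 0.40). HJURP, which loads the centromeric histone CENPA, had 114 and 117 TPM in the knockouts and 111 and 111 TPM in the controls, with an interval of the log2 fold change from -0.11 to 0.22.

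Knockout 2 was farther from the controls than knockout 1 for 5 of the 7 genes by more than 0.1 on the log2 scale. The share of all tested genes with such an order was not counted. The log2 differences from the control mean in knockout 1 and knockout 2 were -1.41 and -2.37 for DEK. They were -0.77 and -1.42 for ANP32E, -0.61 and -0.996 for RBBP4, -0.47 and -0.79 for H3-3A and -0.27 and -0.40 for NCL. Over all 30 tested members only the medians had the other order, at -0.24 in knockout 1 and -0.19 in knockout 2. The summed TPM of the 31 genes was lower in knockout 2, at 3648 against 3728 in knockout 1. For SET (-0.47 and -0.54) and NPM1 (-0.42 and -0.41) the knockouts were close together. The knockouts also differed more than the controls over all tested genes, with a SD of the difference of 0.42 between knockouts and 0.32 between controls.

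**Figure D4:**
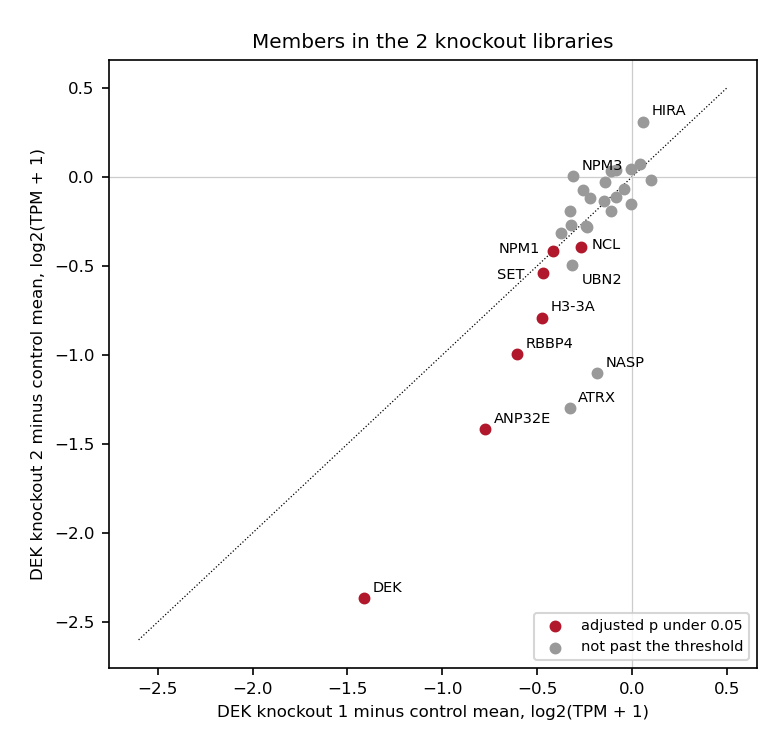
Difference from the control mean on the log2(TPM + 1) scale in DEK knockout 1 (horizontal axis) and DEK knockout 2 (vertical axis) for the 30 tested genes, with a dotted line of equality and the 7 genes past the threshold in red. DEK, ANP32E, ATRX and NASP lie below the line, lower in knockout 2, and SET and NPM1 lie near it.

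RBBP4, ANP32E, H3-3A and NASP are on chromosome 1, whose tested genes had median differences from the controls of -0.10 in knockout 1 and -0.26 in knockout 2. Relative to the median level of the chromosome in each library, the log2 fold change was -0.87 for ANP32E (adjusted p = 0.028), -0.58 for RBBP4 (adjusted p = 0.024) and -0.41 for H3-3A (adjusted p = 0.027). NCL, on chromosome 2, did not pass there, at -0.15 (adjusted p = 0.18), and SSRP1 did, at -0.32 (adjusted p = 0.042). Relative to the median deviation of the chromosome, a setting added after the data had been seen, NCL was at -0.23 (adjusted p = 0.051) and the other calls were as at the median level. The 50 tested genes around ANP32E had a median log2 fold change of -0.09, those around RBBP4 -0.06 and those around H3-3A -0.10. Around DEK this median was -0.27, where that of all tested genes on chromosome 6 was -0.10. It was 0.012 around NPM1, 0.006 around SET and 0.007 around NCL.

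The GC content of the longest transcript was 36.3% to 47.2% (median 41.6%) for the 7 genes that fell and 34.9% to 63.6% (median 50.4%) for the 23 others. Over all tested genes the median log2 fold change was -0.38 below 38% GC, -0.23 from 40% to 42% and 0.11 above 60%, so transcripts of low GC content were lower in the knockout as a class. Below 38% GC the median difference from the controls was -0.29 in knockout 1 and -0.49 in knockout 2. From 40% to 42% it was -0.19 and -0.27, and above 60% it was 0.06 and 0.17. The controls also differed from each other at low GC content: the median of control 1 minus control 2 was 0.23 below 38% GC, 0.02 from 42% to 44% and 0.04 above 60%. Across the 30 members Pearson's r between GC content and log2 fold change was 0.59 (Spearman's rho 0.68), and without DEK it was 0.66 (rho 0.65). Over the 15640 tested genes with a GC value r was 0.27 (rho 0.35). These are descriptions over genes that share libraries. With the GC trend of each library removed, 2583 of 15640 tested genes (16.5%) passed in either direction, 1416 of them higher in the knockout. Of the 30 members 8 then fell. DEK (-1.63, adjusted p = 0.034), ANP32E (-0.70, adjusted p = 0.049), RBBP4 (-0.59, adjusted p = 0.046), NPM1 (-0.27, adjusted p = 0.042) and SET (-0.39, adjusted p = 0.022) were among them. H3-3A (-0.38, adjusted p = 0.057) and NCL (-0.30, adjusted p = 0.054) were not, and SSRP1 (-0.30, adjusted p = 0.041), TONSL (-0.39, adjusted p = 0.046) and ASF1B (-0.27, adjusted p = 0.047) passed. ASF1A, with 34.9% GC, then had a log2 fold change of 0.08. That of UBN2 was -0.13, that of ATRX -0.43 and that of NASP -0.53, and none of these passed. Whether the GC trend arose in the cells or in library preparation was not tested.

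**Figure D5:**
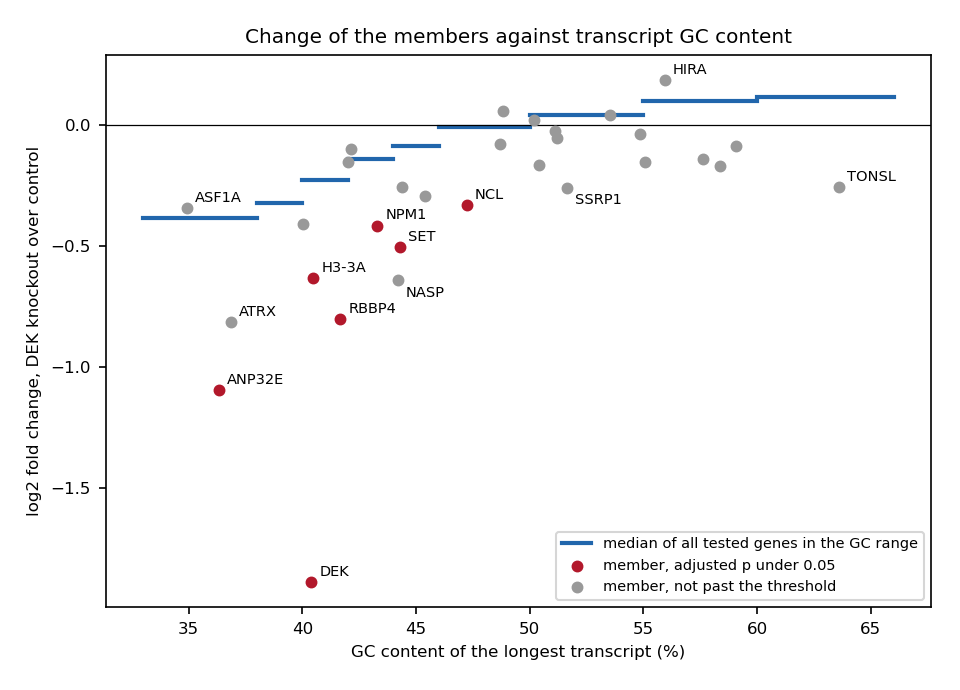
Log2 fold change, DEK knockout over control on the log2(TPM + 1) scale, against the GC content of the longest transcript in percent for the 30 tested members (red, adjusted p under 0.05), with blue bars for the median of all tested genes in each GC range. The bars run upward, at -0.38 below 38% GC and 0.11 above 60%, and DEK, ANP32E, RBBP4 and SET lie below the bar of their range.

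Other genes of histone supply came from a list chosen for their function, with earlier results of these data known. Of 36 genes 32 were tested. Both knockouts lay below both controls for 25 of them (39.0% of all tested genes) and above both for 3 (4625 of all 15815). Past the threshold 6 fell (18.8%) and 0 rose, where 8.67% of all tested genes fell and 17.7% passed in either direction. The median log2 fold change was -0.26 over the 32 genes, against -0.06 over all tested genes. H2AZ2 and H2AZ1 encode H2A.Z, the variant that ANP32E removes. H2AZ2 had 41.8 and 39.9 TPM in the knockouts and 80.3 and 78.2 TPM in the controls (log2 fold change -0.94, SE 0.07, adjusted p = 0.011), and H2AZ1 had 888 and 831 TPM in the knockouts and 1133 and 1056 TPM in the controls (log2 fold change -0.35, SE 0.07, adjusted p = 0.038). OIP5, a subunit of the MIS18 complex that prepares centromeres for HJURP, had 21.1 and 20.2 TPM in the knockouts and 39.7 and 44.5 TPM in the controls (log2 fold change -0.99, SE 0.10, adjusted p = 0.014). The histone chaperone NAP1L1 (log2 fold change -0.62, adjusted p = 0.042) and the import receptors TNPO1 (-0.49, adjusted p = 0.035) and IPO9 (-0.48, adjusted p = 0.041), the last a carrier of H2A-H2B, made up the rest. CENPA, with 59.2 and 55.5 TPM in the knockouts and 72.4 and 70.4 TPM in the controls, did not pass (adjusted p = 0.054).

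Several of these chaperones are most abundant in dividing cells, so markers of proliferation were set beside them. Of 12 such markers 3 fell, where 8.67% of all tested genes did, and 0 rose, with a median log2 fold change of -0.27: CCNA2 (-0.77, adjusted p = 0.016), CCNE2 (-0.92, adjusted p = 0.049) and TK1 (-0.39, adjusted p = 0.041). MKI67 had 91.2 and 79.9 TPM in the knockouts and 107 and 99.2 TPM in the controls (adjusted p = 0.11). The part of proliferation in the members' values was not tested.

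Promoters of the genes that fell are shown because these genes moved in the same direction. RefSeq sequences (GRCh38.p14) were at hand for 27 of the 31 genes and for 6 of the 7. The 250 bases before each start were searched on both strands for CCAAT, the core of the site bound by NF-Y. It occurred in 15 of the 27 (55.6%), in 5 of the 6 and in 9021 of all 27305 promoters. The E-box CACGTG occurred in 6 of the 27 (22.2%), against 6.49% of all, and in 1 of the 6, RBBP4. The E2F words TTTCCCGC, TTTCGCGC, TTTGCCGC and TTTGGCGC occurred in 1 of the 27, HIRA, against 2.79% of all, and in 0 of the 6. The last 120 bases before the start are given 5′ to 3′ on the gene's strand, with CCAAT or its complement ATTGG in capitals. They lie at chr6:18264531-18264650 for DEK, chr1:32651088-32651207 for RBBP4, chr2:231464485-231464604 for NCL, chr9:128683304-128683423 for SET and chr5:171387729-171387848 for NPM1.
DEK: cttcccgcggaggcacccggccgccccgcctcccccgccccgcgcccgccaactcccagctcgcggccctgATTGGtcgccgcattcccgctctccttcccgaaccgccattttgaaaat
RBBP4: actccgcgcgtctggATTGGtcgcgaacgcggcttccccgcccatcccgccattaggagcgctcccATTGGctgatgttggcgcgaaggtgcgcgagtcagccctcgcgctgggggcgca
NCL: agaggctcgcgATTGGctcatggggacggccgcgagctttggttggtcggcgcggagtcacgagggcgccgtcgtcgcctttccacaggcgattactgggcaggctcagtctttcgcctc
SET: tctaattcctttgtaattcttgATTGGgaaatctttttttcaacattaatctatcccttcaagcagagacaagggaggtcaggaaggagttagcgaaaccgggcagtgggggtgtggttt
NPM1: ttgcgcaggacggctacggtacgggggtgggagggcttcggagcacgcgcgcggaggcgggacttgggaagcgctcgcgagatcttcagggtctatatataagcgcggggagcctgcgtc

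RBBP4 has 2 ATTGG words in this window, DEK, NCL and SET have 1 each, and NPM1 has none in its 250 bases. In H3-3A the word lies upstream of the last 120 bases. For NCL and H3-3A the bases just after the RefSeq start were not found in a GENCODE transcript. The bases shown for NCL, DEK and NPM1 lie inside the GENCODE spans of these genes, so a RefSeq start is not always the outermost one. A match is a run of letters, not a bound site, and it says nothing of why a gene fell.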

How the data were processed

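The authors deposited 1 table of TPM, with 1 column per library, each summing to 1000000, so values are relative within a library. Build hg38, featureCounts 2.0.1, STAR 2.7.8a, DESeq2 1.36.0 and cutadapt 1.18 appear in the submitters' processing notes, with no role given. The annotation, the gene lengths and whether counting used strand are not stated there. Libraries were assigned to groups by title. Symbols were matched to GENCODE release 29 (GRCh38) for position, overlap, exon length and GC content, 54390 by name and 2209 through current symbols.

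Genes reaching 1 TPM in 2 or more libraries were fitted as log2(TPM + 1) with limma 3.58.1 in R 4.3.3. The design held group alone, and the variance prior followed mean expression. The procedure was run on simulated data with normal noise and added log2 changes of 1 or 2 in either direction, so smaller changes were not covered. Depth was estimated from TPM times exon length; 53.9% to 55.9% of values under 200 reads were then whole to within 0.02, so it is approximate, and no counting intervals are given. GC trends were removed with lowess (span 0.3). The 15 alternatives covered the pseudocount, filters, scalings, the variance prior, a replicate block, single libraries left out, chromosome and GC, beside a stricter adjusted p of 0.01 for the counts; the setting relative to the chromosome's median deviation was added after the data had been seen. Members, lists and tests were chosen with earlier results of these data known. Every member was named, as were list genes past the threshold; CENPA, MKI67, PAX8, CA9, NDUFA4L2 and PDGFRB were named after their values were seen. Promoters and motifs were chosen likewise.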

Additional observations from a re-analysis of the deposited data

How the results depend on the processing

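The main counts were 2804 genes, 7 members and 6 genes of the histone supply list. With no filter on low values they were 26, 0 and 0 (DEK -1.89, adjusted p = 0.096), and with one variance prior for all genes 1437, 0 and 2 (DEK -1.89, adjusted p = 0.056). With single libraries left out they ranged from 47 to 5510, from 0 to 12 and from 0 to 17, and DEK from -2.37 to -1.41. In those fits the spread comes from the group that keeps 2 libraries, so their counts do not show how stable a call is. At an adjusted p under 0.01 there were 90 genes and 0 members. A replicate block gave 2971 genes and 6 members, without NCL. The replicate numbers are not stated to pair libraries, and over genes the differences between the knockouts and between the controls correlated with r = 0.099. The list count was 11 at a mean of at least 5 TPM, 3 with median ratio scaling and 10 without mitochondrial genome genes. The members' median was -0.17 without a filter, -0.17 at a mean of at least 5 TPM and -0.15 with median ratio scaling, which also removed ANP32E and NCL from the calls. Of all genes called, 1433 of 2804 were higher in the knockout, against 1588 of 2543 with median ratio scaling and 1738 of 2804 relative to the chromosome median level. The 7 members past the threshold kept their direction in all 15 alternatives, but many of these could not have changed it. Filters, the variance prior and the replicate block leave a log2 fold change as it is. For each of the 7 both knockouts lay below both controls, so leaving out a single library could not reverse the sign. Members that did not pass changed sign in 25 instances, none of them past the threshold. Median ratio scaling gave 0.0201 for DAXX, 0.0357 for UBN1 and 0.0047 for ANP32A, and quantile normalization 0.0272 for UBN1. Without mitochondrial genome genes NAP1L4 was at -0.0105. Relative to the chromosome median level DAXX was at 0.0475, HIRA at -0.0156, CHAF1B at 0.0207, NAP1L4 at -0.0363 and NPM3 at 0.0141, and relative to its median deviation DAXX was at 0.0554 and HIRA at -0.0355. With the GC trend removed ASF1A was at 0.0810, NAP1L4 at -0.0081, SUPT6H at -0.0200, SPTY2D1 at 0.0869 and RBBP7 at 0.0395. With single libraries left out DAXX ranged from -0.114 to 0.0342, UBN1 from -0.0851 to 0.0375, NAP1L4 from -0.0208 to 0.0590, SUPT6H from -0.0171 to 0.0973, NPM3 from -0.311 to 0.0027 and SPTY2D1 from -0.233 to 0.0309. The cause of these changes was not tested.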
